A study of Mus musculus with 8 samples.

Results

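The 58 genes described here encode the machinery that docks, primes and fuses secretory granules with the plasma membrane, the step by which β cells release insulin. They were chosen by symbol among the 32531 gene symbols of the count table, as the synaptotagmins, the SNARE proteins and their regulators, the Rab3 and Rab27 proteins with their effectors, the priming factors and the scaffolds of the presynaptic active zone, and all 58 were found. Islet RNA from 4 control mice, which were RIP-Cre+, Rosa26-rtTA+ and tetO_NICD-, was set against that of 4 β-tetO-NICD mice, which were RIP-Cre+, Rosa26-rtTA+ and tetO_NICD+. Mice of both groups were on a mixed background of C57BL/6J, 129X1/SvJ and BALB/c and drank doxycycline (Dox) for 8 weeks, so that controls carried every element except the transgene for NICD, the intracellular domain through which activated Notch1 acts. Age is not given in the labels. Cre was driven by an insulin promoter and NICD is thus made in β cells, but RNA was taken from whole islets, in which fewer β cells and less RNA per β cell cannot be told apart.

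An insulin granule fuses when the SNARE protein Vamp2 on its membrane zips together with Stx1a and Snap25 on the plasma membrane. Synaptotagmins couple this to the rise of calcium that follows glucose, Rab3a and Rab27a on the granule recruit effectors such as granuphilin (Sytl4), rabphilin (Rph3a) and Noc2 (Rph3al) that hold the granule at the membrane, and Munc13 proteins (Unc13a, Unc13b) and CAPS proteins (Cadps, Cadps2) make it ready to fuse. Rim proteins, piccolo (Pclo) and bassoon (Bsn) organize release sites in neurons, and Rim2 and piccolo are also known in β cells. Many of these families hold several members, of which islets use a few.

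Totals were between 21701223 and 26413146 counts per library, and Notch1 counts, which check the labels, ran from 1051 to 1562 in controls and from 11388 to 36628 in the libraries of the other group. Islet markers were present in every library, with Ins1 and Ins2 at 15.0% to 17.3% of counts in controls and 6.16% to 13.9% in β-tetO-NICD islets. Summed alpha cell markers (6 genes) took 1.17% to 4.21% and 6.01% to 6.82% of counts, and 20 acinar markers 7.77% to 13.9% and 7.0% to 20%, with the highest acinar share in β-tetO-NICD 1. Delta cell markers (3 genes) took 0.257% to 0.641% in controls and 0.492% to 1.37% in β-tetO-NICD islets, and 1 of them, Hhex, rose (edgeR, adjusted p = 0.0436). The neuron markers (6 genes) took 0.0120% to 0.0206% of counts in controls and 0.00970% to 0.0127% in β-tetO-NICD islets. Of these, Th alone fell with an adjusted p under 0.05 (log2 fold change −1.48, edgeR, adjusted p = 0.000681). The other neuron markers tested were at −0.41 (Elavl4) to −0.12 (Stmn2) on the log2 scale. Dbh had too few counts for a test, and which cells held the Th RNA was not tested. The only fits below that took account of any of these cell types used an acinar score as covariate. Otherwise the part of these cell types in the results was not tested. Expression rose with transcript length relative to the 8-library mean in β-tetO-NICD 1 as in controls 1, 2 and 4 (Spearman's rho across genes 0.418 to 0.497) and fell with it in control 3 and β-tetO-NICD 2, 4 and 5 (−0.174 to −0.521). The study's methods state that gene expression was measured in islets of males, yet the Y-linked gene Eif2s3y had 1300 to 1527 counts in 3 libraries only (control 2, control 4 and β-tetO-NICD 5) and at most 1 in the other 5.

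All 58 genes passed the count minimum, and 11 of them (19.0%) had an adjusted p under 0.05 by edgeR, against 6.76% of the 15082 genes tested. The synaptotagmin gene Syt5, the Rim gene Rims1 and the Rab genes Rab27b and Rab3b rose in β-tetO-NICD islets, which is 4 genes against 4.19% of all genes tested that rose. The 7 genes that fell, against 2.57% of all genes, were Syt10 and Doc2b among synaptotagmin and Doc2 genes, Rph3a, Sytl4 and Sytl3 among Rab effectors, the scaffold gene Rims3 and the SNARE gene Snap29. The median log2 fold change was −0.35 over the 58 genes, with 42 negative, and 0.00 over all genes tested, of which 49.9% were negative, and it was the same with Syt10 set at its lower bound. Genes whose groups did not overlap in CPM, the counts scaled to a common library size, numbered 19 (32.8%), against 16.1% of all genes. Of 25 genes listed as the core of insulin granule fusion, only Sytl4 (4%) passed by edgeR over all 8 libraries, against 6.76% of all genes. The number was 7 by DESeq2 (Cadps, Pclo, Rab27a, Snap23, Syt14, Sytl4 and Unc13b, all lower), where 18.2% of all genes were called in either direction. It was 13 by edgeR without β-tetO-NICD 1 (11 lower and 2 higher, Syt7 among the former), where 33.2% were. Vamp2, Snap25, Stx1a, Syt9 and Rab3a passed in none of these 3 fits.

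**Figure D1:**
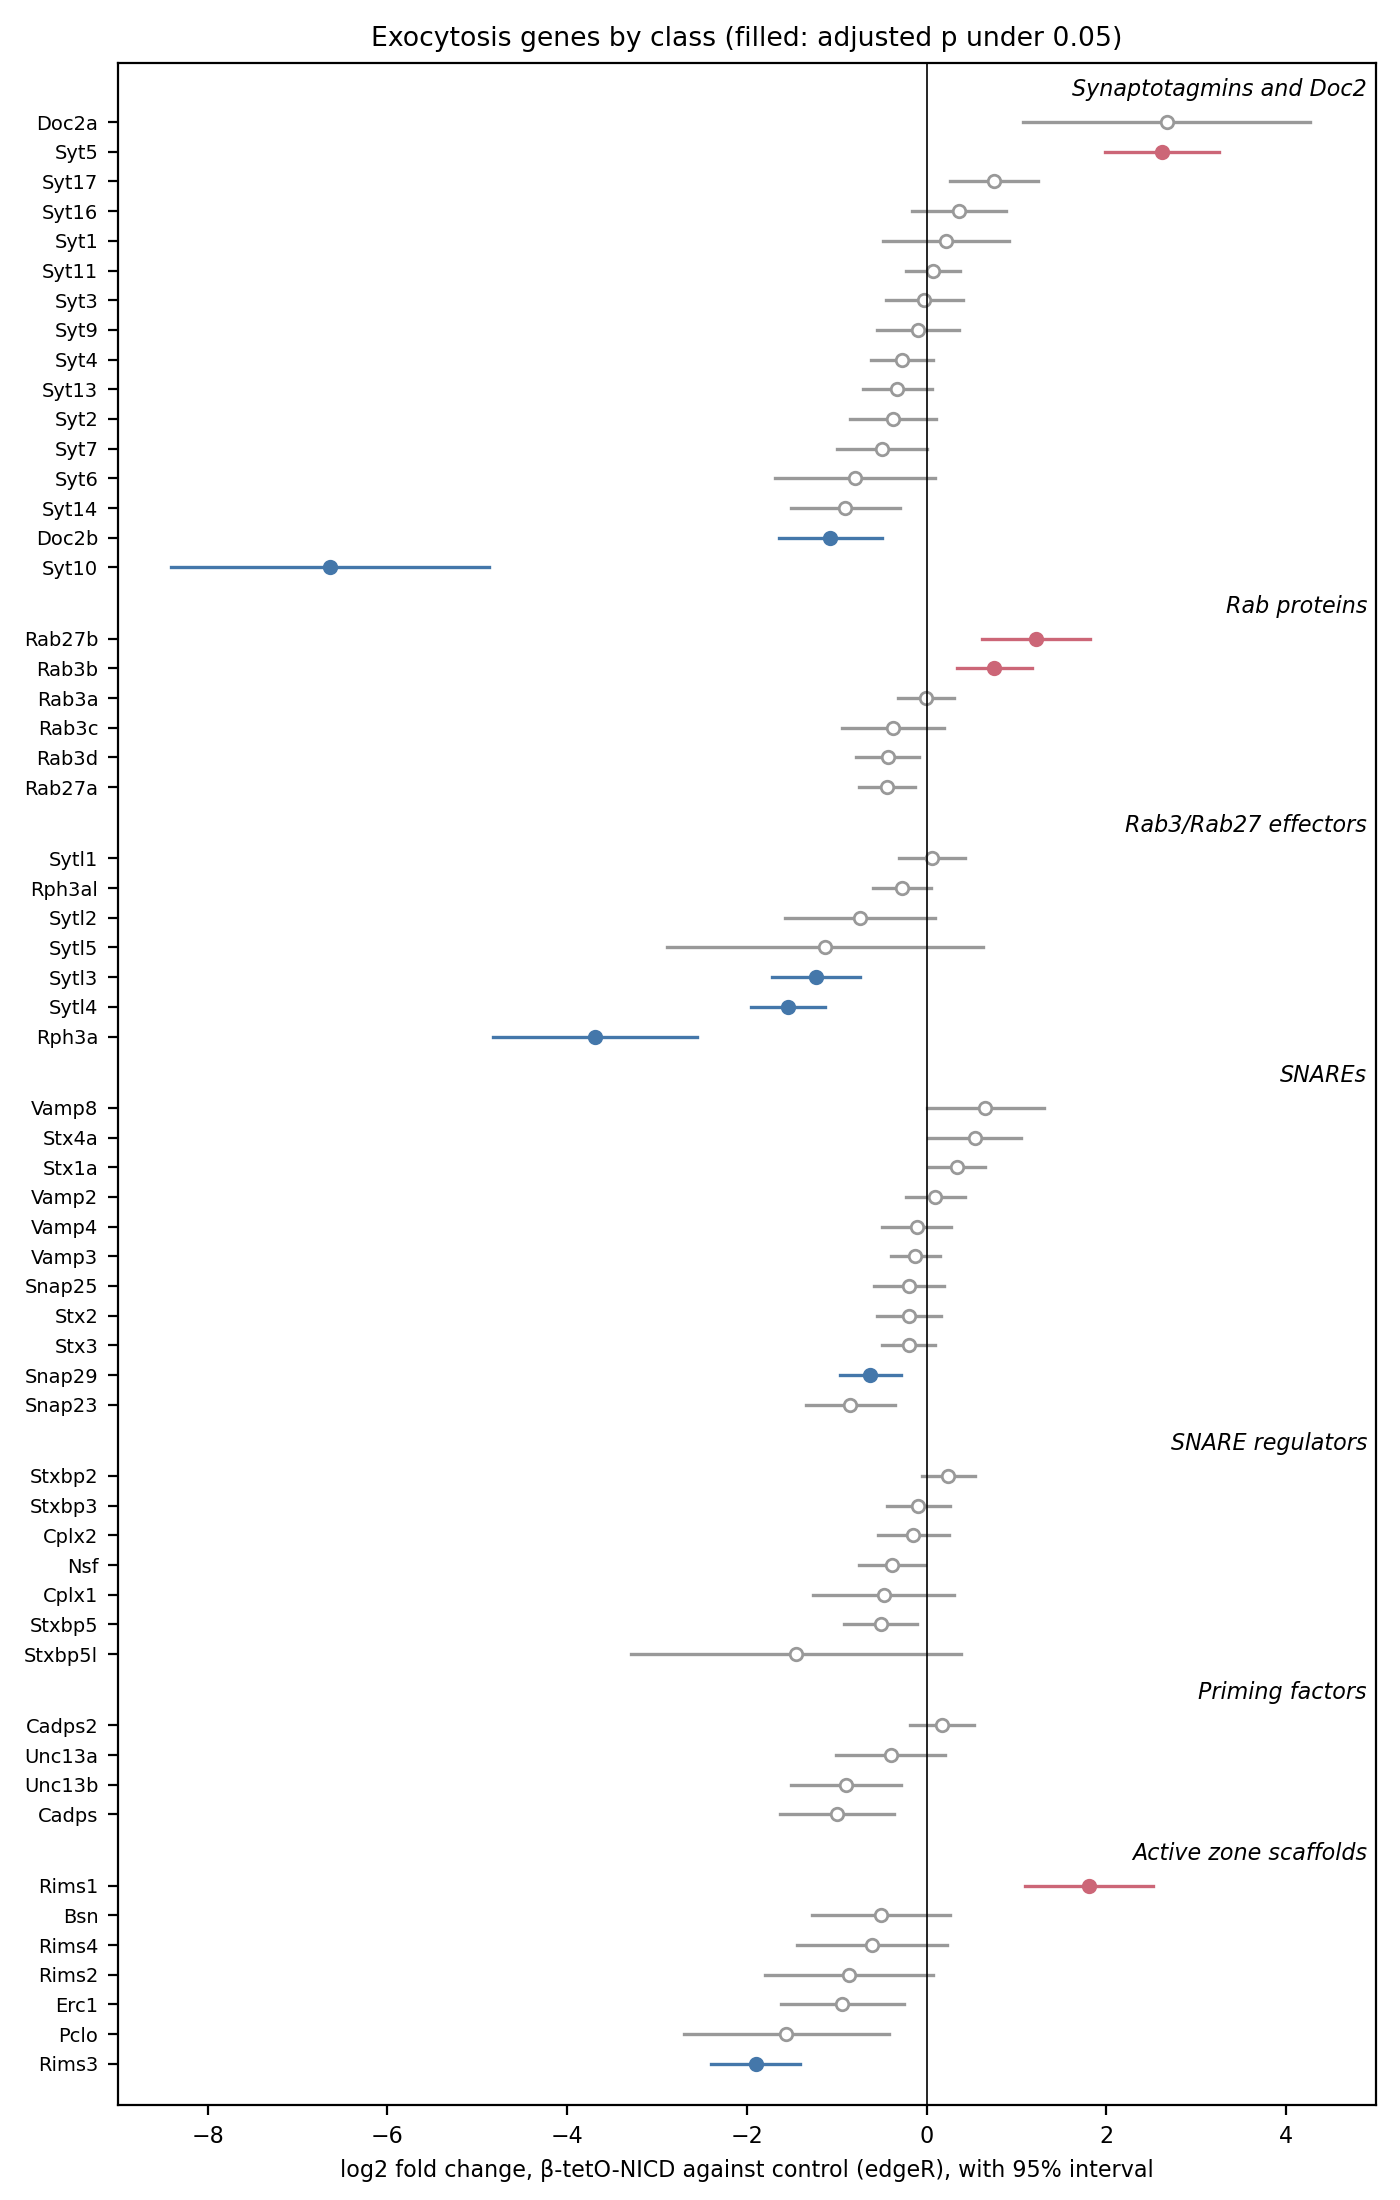
Log2 fold change of each of the 58 exocytosis genes (horizontal axis, log2 scale, β-tetO-NICD against control by edgeR) with its 95% interval, grouped by class. Filled points are the 11 genes with an adjusted p under 0.05, and the value of Syt10 is a fitted one because its β-tetO-NICD libraries held at most 3 counts.

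Rab effectors held 3 of the 7 genes that fell, and 42.9% of the 7 effectors passed, against 6.76% of all genes tested. Sytl4 (chromosome X, 133936385 to 133981812 of GRCm38, GENCODE M21) encodes granuphilin, the Rab27a effector that tethers insulin granules to syntaxin at the plasma membrane. In controls 1 to 4 its level was 296, 246, 278 and 368 CPM, and in β-tetO-NICD 1, 2, 4 and 5 it was 114, 77.7, 111 and 106 CPM. The highest β-tetO-NICD library thus lay well below the lowest control, and the spread within each group was small beside the gap. Means were 297 ± 51.6 CPM for controls and 102 ± 16.6 CPM for β-tetO-NICD islets (both SD, n = 4), giving a log2 fold change of −1.54 with a standard error of 0.186 (edgeR, adjusted p = 0.00170). It passed the threshold in all 22 other fits that were tried, and its value with 1 library left out stayed between −1.61 and −1.42.

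Rph3a (chromosome 5, 120940499 to 121010092), whose product rabphilin binds Rab3a and Rab27a on granules, had 17.8, 11.2, 19.6 and 56.9 CPM in controls and 1.57, 1.92, 2.85 and 1.76 CPM in β-tetO-NICD islets. Control 4 was far above the other controls, but even the lowest control was several times the highest β-tetO-NICD library. The log2 fold change was −3.69 with a standard error of 0.509 (edgeR, adjusted p = 0.00348), and it was −2.98 without control 4 (adjusted p = 0.00150 by edgeR). Its near relative Rph3al, which encodes Noc2, was far more abundant and had 99.3 to 119 CPM in controls and 77.8 to 102 CPM in β-tetO-NICD islets. The log2 fold change of Rph3al was −0.27 with a 95% interval of −0.59 to 0.05 (adjusted p = 0.216 by edgeR). Of the 2 genes together, per kb of the longest transcript, Rph3a made up 5.20% to 23.3% in controls and 0.805% to 1.51% in β-tetO-NICD islets.

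Sytl3, the gene of another synaptotagmin-like Rab27 effector, had 8.62, 11.3, 7.71 and 13.2 CPM in controls and 4.65, 4.89, 3.65 and 4.23 CPM in β-tetO-NICD islets, without overlap (−1.23 on the log2 scale, standard error 0.220, adjusted p = 0.0120 by edgeR). It did not pass without the libraries that held Eif2s3y (−0.89, adjusted p = 0.213 by edgeR) or with the length slope of each library as a covariate (−1.03, adjusted p = 0.104 by edgeR). Sytl1, the second most abundant gene of this family per kb, did not follow them, with 34.6 to 52.2 CPM in controls and 40.8 to 54.1 CPM in β-tetO-NICD islets and a 95% interval of −0.31 to 0.43 for its log2 fold change. Sytl2 and Sytl5 did not pass either, at −0.74 and −1.13 on the log2 scale (edgeR, adjusted p = 0.196 and 0.328). Sytl5 was uneven among β-tetO-NICD libraries, at 25.6, 2.75, 5.34 and 1.16 CPM, against 27.1, 16.4, 8.62 and 24.1 CPM in controls, so that β-tetO-NICD 1 lay at the level of the controls and the other 3 below all of them. Without β-tetO-NICD 1 both passed, at −1.18 for Sytl2 and −2.60 for Sytl5 (edgeR, adjusted p = 0.0184 and 0.00902), whereas with each library's length slope as a covariate they were at −0.18 and 0.19 (adjusted p = 0.830 and 0.803 by edgeR). The class as a whole had a median log2 fold change of −1.13 over 7 genes, 6 of them negative, and this median is the value of Sytl5. With each library's length slope as a covariate, the middle value of the 7 was that of Sytl2, −0.18.

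Per kb of transcript, the 5 synaptotagmin-like genes summed to 98.8 to 129 CPM per kb in controls and 44.9 to 63.6 CPM per kb in β-tetO-NICD islets. Of this sum, Sytl4 made up 66.4% to 75.9% in controls and 46.1% to 58.7% in β-tetO-NICD islets, and Sytl1 10.8% to 20.6% in controls and 29.6% to 45.2% in β-tetO-NICD islets. Sytl4 was the most abundant member of the family in every library, though nearly level with Sytl1 in β-tetO-NICD 2, where the shares were 46.1% and 45.2%. These shares are descriptions of the libraries, and no test was made on them.

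The promoters of Sytl4 and Rph3a are shown here with those of Rims3, Syt10 and Rims1, which also changed, to show where motifs of the Notch pathway lie in them and where they do not. No promoter of Syt5, the gene with the lowest adjusted p, was at hand. Of the 3 windows of Rph3a, the one with a match and the one farthest upstream are printed. Each line gives the 250 bases before the annotated start (RefSeq, GRCm38.p6), written 5′ to 3′ on the strand of the gene, with capitals for matches on either strand to TGGGAA, the core bound by Rbpj, the DNA-binding partner of NICD, or to CACGNG, a motif bound by the Notch-induced Hes and Hey repressors.
Sytl4, chrX:133981813-133982062, - strand: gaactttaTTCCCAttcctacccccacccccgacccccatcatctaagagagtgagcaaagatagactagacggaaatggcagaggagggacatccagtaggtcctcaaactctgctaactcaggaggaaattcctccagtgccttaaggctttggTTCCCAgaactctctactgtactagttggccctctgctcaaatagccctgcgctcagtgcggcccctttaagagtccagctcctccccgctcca
Rph3a, chr5:121008485-121008734, - strand: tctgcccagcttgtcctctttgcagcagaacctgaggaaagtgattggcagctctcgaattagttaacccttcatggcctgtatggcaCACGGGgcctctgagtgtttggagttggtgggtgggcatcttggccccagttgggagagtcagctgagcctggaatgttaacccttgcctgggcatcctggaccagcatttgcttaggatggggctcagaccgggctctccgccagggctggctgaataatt
Rph3a, chr5:121010093-121010342, - strand: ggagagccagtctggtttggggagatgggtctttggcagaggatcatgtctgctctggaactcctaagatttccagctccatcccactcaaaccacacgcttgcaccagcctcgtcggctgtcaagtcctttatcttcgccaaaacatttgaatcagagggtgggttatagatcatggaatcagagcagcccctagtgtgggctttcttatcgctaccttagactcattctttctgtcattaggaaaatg
Rims3, chr4:120854549-120854798, + strand: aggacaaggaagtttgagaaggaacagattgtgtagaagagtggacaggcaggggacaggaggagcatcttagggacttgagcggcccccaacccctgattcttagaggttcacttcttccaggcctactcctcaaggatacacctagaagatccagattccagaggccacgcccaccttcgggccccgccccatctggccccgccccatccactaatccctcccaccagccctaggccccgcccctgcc
Syt10, chr15:89841861-89842110, - strand: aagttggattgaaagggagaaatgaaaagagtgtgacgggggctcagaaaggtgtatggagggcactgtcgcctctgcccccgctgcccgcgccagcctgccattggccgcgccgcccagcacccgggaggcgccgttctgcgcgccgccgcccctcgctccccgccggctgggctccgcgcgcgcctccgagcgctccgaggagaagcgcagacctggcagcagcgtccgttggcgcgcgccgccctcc
Rims1, chr1:22806159-22806408, - strand: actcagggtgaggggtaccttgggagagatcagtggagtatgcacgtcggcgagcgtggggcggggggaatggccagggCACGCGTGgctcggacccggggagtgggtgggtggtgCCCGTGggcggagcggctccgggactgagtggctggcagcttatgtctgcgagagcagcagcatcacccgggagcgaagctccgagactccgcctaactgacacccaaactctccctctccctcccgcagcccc

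The Sytl4 window holds TGGGAA at 2 places, whose first bases lie 242 and 94 bases before the start, in each case as its reverse complement. Rims1, which rose, holds CACGNG at 171, 169 and 134 bases before the start, the first 2 of which overlap. Rph3a holds CACGNG in 1 of its 3 windows, at 162 bases before that start. In the windows of Rims3 and Syt10 and in the other 2 of Rph3a neither set of letters occurs, which says nothing of factor binding there or elsewhere. Promoter windows were used for 44 of the 58 genes (54 windows, since some genes have several starts), and 10 windows (18.5%) held TGGGAA, against 21.6% of the 32851 windows of all genes. CACGNG was in 25 of the 54 windows (46.3%), against 23.5% of all windows. Among the 10 windows of the genes that passed the threshold, 1 held TGGGAA (Sytl4) and 2 held CACGNG (Rims1 and Rph3a).

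Rab proteins, the small GTPases that mark granules, gave 2 of the 4 genes that rose. Of the 6 Rab genes 33.3% passed, against 6.76% of all genes tested. Rab3b (chromosome 4, 108879063 to 108943324) had 75.6, 63.5, 88.1 and 62.9 CPM in controls and 95.8, 155, 126 and 111 CPM in β-tetO-NICD islets. Every β-tetO-NICD library was above every control, though β-tetO-NICD 1 exceeded control 3 by little. Means were 72.5 ± 11.9 CPM for controls and 122 ± 25.3 CPM for β-tetO-NICD islets (both SD, n = 4), giving a log2 fold change of 0.75 with a standard error of 0.187 (edgeR, adjusted p = 0.0435). Rab27b, the less abundant paralog of Rab27a, had 3.69, 4.43, 2.97 and 4.06 CPM in controls and 13.3, 6.98, 8.76 and 6.19 CPM in β-tetO-NICD islets, giving a log2 fold change of 1.22 with a standard error of 0.271 (edgeR, adjusted p = 0.0289). Its highest value was in β-tetO-NICD 1, the library with the most acinar RNA, and with an acinar marker score as covariate its log2 fold change was 1.10 (adjusted p = 0.0616 by edgeR), whereas without that library it was 0.95 (adjusted p = 0.0143 by edgeR). Both calls were fragile, since with 1 library left out Rab27b passed in 2 of 8 fits, those without β-tetO-NICD 1 or 5, and Rab3b in 2 of 8, those without β-tetO-NICD 1 or control 3 (adjusted p over the 8 fits 0.0143 to 0.0748 and 0.00909 to 0.136 by edgeR).

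Rab27a, the Rab of insulin granules, had 226, 209, 233 and 228 CPM in controls and 194, 157, 161 and 148 CPM in β-tetO-NICD islets, again without overlap, but the difference of −0.44 on the log2 scale missed the threshold (95% interval −0.75 to −0.13, adjusted p = 0.0798 by edgeR). Rab27b remained a small part of the pair per kb of transcript, at 0.581% to 0.967% in controls and 1.89% to 3.05% in β-tetO-NICD islets. Rab3d, a granule Rab also known from acinar cells, did not overlap between the groups, by a narrow margin (130.4 to 169.7 CPM in controls and 95.5 to 130.0 CPM in β-tetO-NICD islets), and differed by −0.43 on the log2 scale (edgeR, adjusted p = 0.109). Rab3a was at 75.4, 67.3, 80.1 and 65.0 CPM in controls and 60.5, 78.6, 70.3 and 76.7 CPM in β-tetO-NICD islets, with the groups interleaved, and the 95% interval of its log2 fold change was −0.32 to 0.30. Rab3c had 21.1 to 45.6 CPM in controls and 17.9 to 26.4 CPM in β-tetO-NICD islets (−0.37, adjusted p = 0.313 by edgeR).

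Among the 4 Rab3 genes, the share of Rab3b was higher in every β-tetO-NICD library than in any control, while that of Rab3d overlapped. Of the 4 together, per kb, Rab3b took 17.5% to 22.4% in controls and 27.6% to 35.5% in β-tetO-NICD islets, Rab3d 31.7% to 39.8% in controls and 22.3% to 32.1% in β-tetO-NICD islets, and Rab3a 39.8% to 43.6% in controls and 37.3% to 44.8% in β-tetO-NICD islets. The sum of the 4 genes was 99.6 to 118 CPM per kb in controls and 104 to 131 CPM per kb in β-tetO-NICD islets, so the totals overlapped. In the order of levels per kb, Rab3a was above Rab3d in 3 of 4 controls and nearly level with it in control 2, and Rab3a led in every β-tetO-NICD library.

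**Figure D2:**
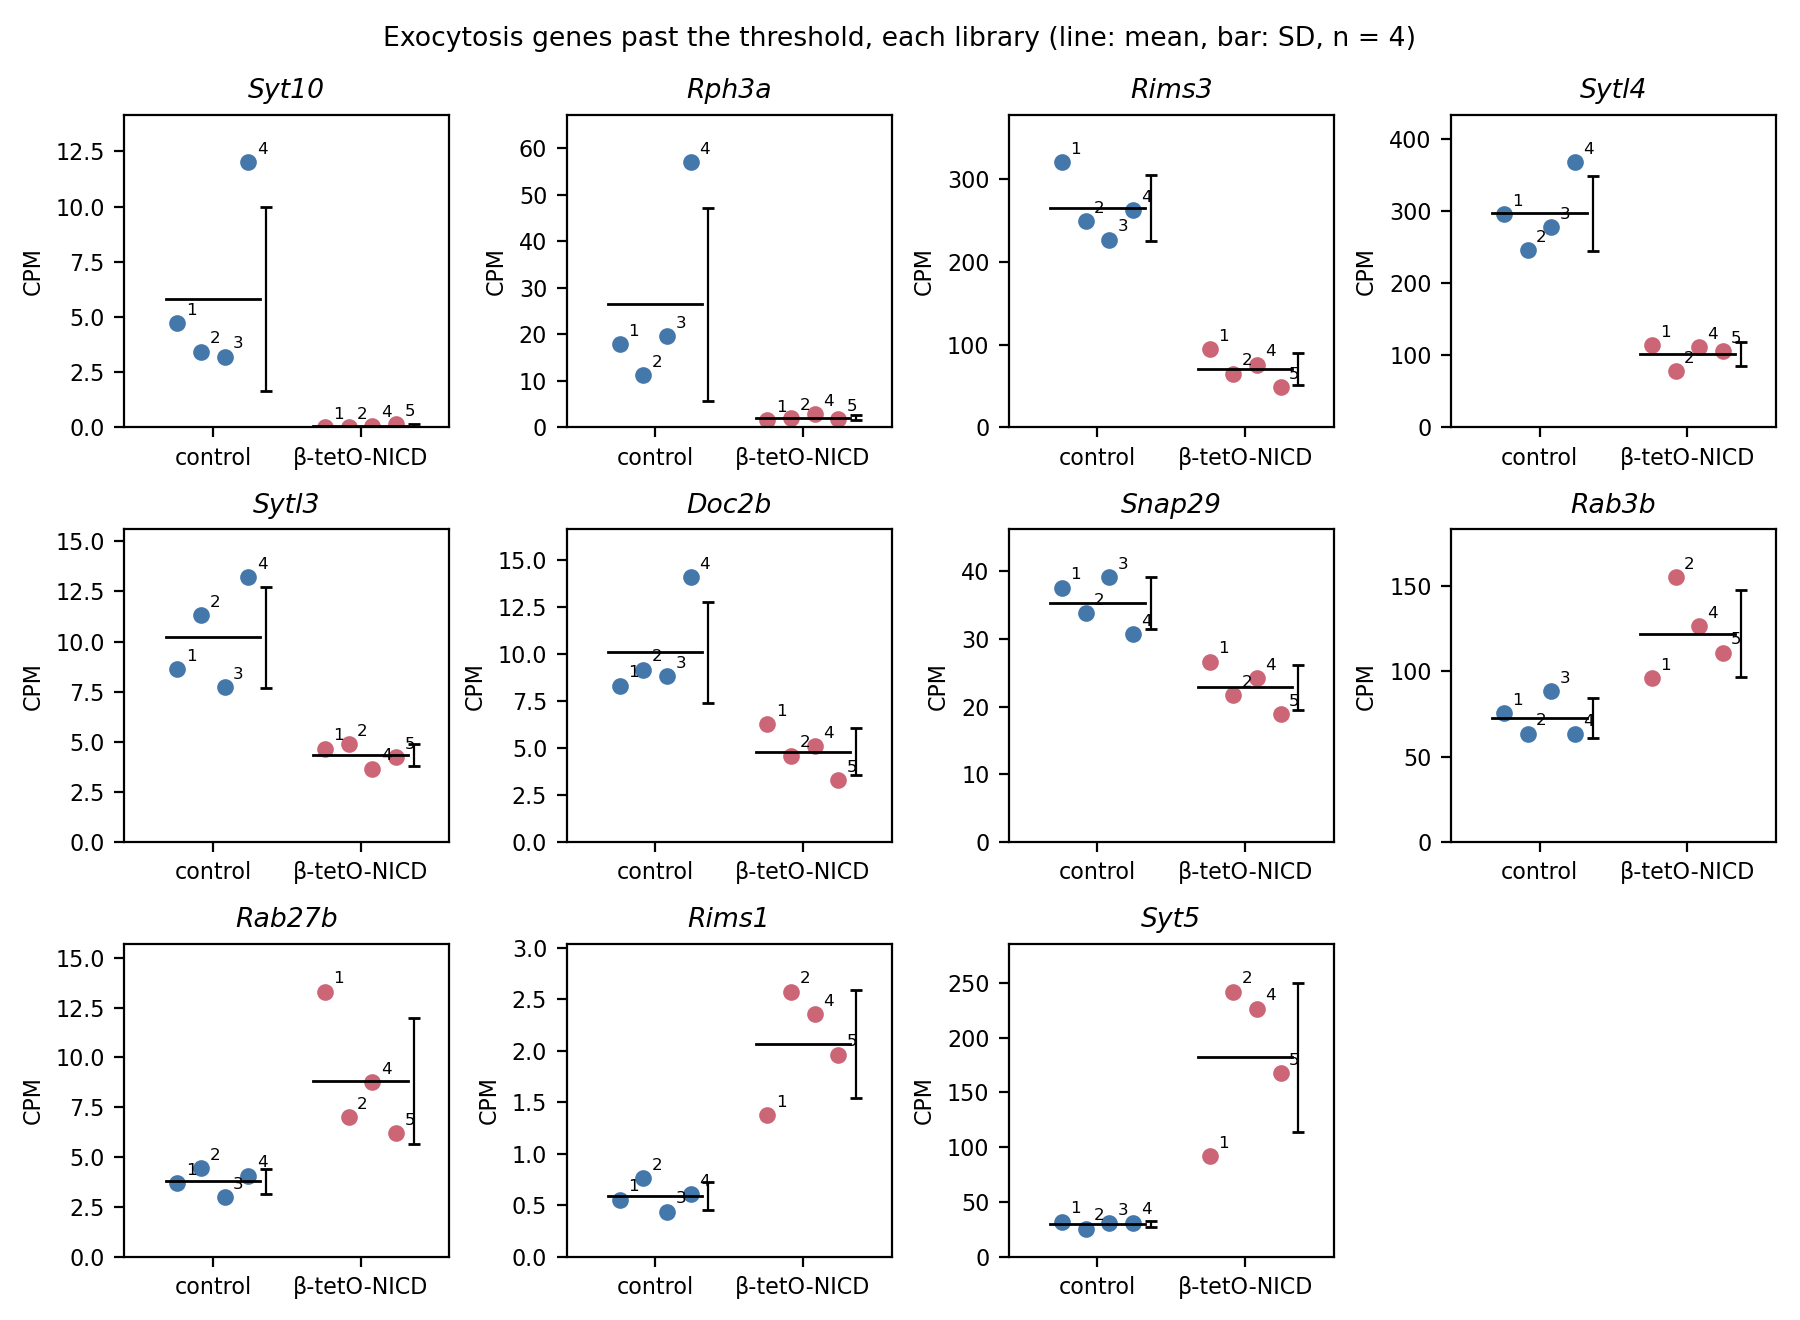
Level in CPM (vertical axis, linear from 0) of the 11 exocytosis genes past the threshold in each control and β-tetO-NICD library, labelled by library number, with the mean (line) and SD (bar, n = 4). The groups do not overlap in any of the 11 panels, which adds no support because the panels hold only genes that passed the test. β-tetO-NICD 1 is the library nearest the controls for 7 of the genes (Syt5, Sytl4, Rims1, Rims3, Rab3b, Snap29 and Doc2b).

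Of 16 synaptotagmin and Doc2 genes, most of which encode calcium sensors, 1 rose and 2 fell (18.8% passed, against 6.76% of all genes tested). Syt5 (chromosome 7, 4539765 to 4547541), which encodes a synaptotagmin of secretory vesicles, had 31.8, 25.4, 30.3 and 30.9 CPM in controls and 91.6, 242, 227 and 168 CPM in β-tetO-NICD islets. The 4 controls lay close together, and even β-tetO-NICD 1, the lowest of its group, was nearly 3 times the highest control. Means were 29.6 ± 2.87 CPM for controls and 182 ± 68.2 CPM for β-tetO-NICD islets (both SD, n = 4), giving a log2 fold change of 2.62 with a standard error of 0.285 (edgeR, adjusted p = 0.000920). It passed in all 8 fits that left out 1 library. With the 3 libraries that held Eif2s3y left out, which keeps 2 controls and 3 β-tetO-NICD libraries, the log2 fold change was 2.59 and did not pass (adjusted p = 0.0601 by edgeR).

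Syt10 (chromosome 15, 89782393 to 89841860), the gene of a calcium sensor known from the release of growth factors by neurons, went the other way. Controls held 102, 81, 81 and 296 counts and β-tetO-NICD libraries 0, 0, 2 and 3 counts. At or under 3 counts per library, the β-tetO-NICD group was at the floor of detection, and its level was at least 44.5-fold lower than the control mean of 5.83 ± 4.17 CPM (n = 4), with an adjusted p of 0.00159 by edgeR. Control 4 held far more counts than any other control, as it did for Rph3a, and without it the control mean was 3.77 CPM and the bound 28.8-fold. Syt10 was a minor synaptotagmin in controls, at 0.497% to 1.52% of the family per kb.

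Doc2b, which encodes a calcium-binding protein that promotes SNARE assembly in β cells, had 8.30, 9.16, 8.82 and 14.1 CPM in controls and 6.27, 4.58, 5.08 and 3.27 CPM in β-tetO-NICD islets, giving a log2 fold change of −1.07 with a standard error of 0.255 (edgeR, adjusted p = 0.0376). It passed with 1 library left out only without β-tetO-NICD 1 (−1.22, adjusted p = 0.0100 by edgeR), and the adjusted p over those 8 fits was 0.0100 to 0.115. Its relative Doc2a was close to the floor in controls, with 3, 0, 8 and 1 counts, and had 28, 17, 15 and 15 counts in β-tetO-NICD islets. These groups did not overlap either, but the difference did not pass (adjusted p = 0.0539 by edgeR), and from so few counts its fold is uncertain (log2 fold change 2.67, 95% interval 1.08 to 4.27).

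The remaining 12 synaptotagmin genes did not pass by edgeR over all 8 libraries, but DESeq2 called Syt14 and Syt17 (adjusted p = 0.0146 and 0.00990), and without β-tetO-NICD 1 edgeR called Syt7 and Syt14 (adjusted p = 0.0238 and 0.00672). With the length slope of each library as a covariate, Syt7, Syt14 and Syt17 were at −0.06, −0.32 and 0.89 (adjusted p = 0.904, 0.387 and 0.118 by edgeR). Syt13, an atypical synaptotagmin that does not bind calcium, was the most abundant of the 58 genes per kb in both groups, with 923, 945, 881 and 1091 CPM in controls and 706, 804, 897 and 652 CPM in β-tetO-NICD islets (−0.33, adjusted p = 0.211 by edgeR). Syt7, a main calcium sensor of insulin release, had 264, 231, 156 and 199.9 CPM in controls and 209, 123, 145 and 124 CPM in β-tetO-NICD islets, and its log2 fold change was −0.50 with an interval of −1.0 to 0.00 (adjusted p = 0.159 by edgeR). β-tetO-NICD 1 lay within the controls for Syt7, and the other 3 below all of them. Syt9, another calcium sensor of β cells, was at 19.9 to 27.0 CPM in controls and 15.3 to 28.3 CPM in β-tetO-NICD islets, with an interval of −0.55 to 0.35 for its log2 fold change. Syt4 had 109.9 to 129 CPM in controls and 87.2 to 126 CPM in β-tetO-NICD islets (−0.28, adjusted p = 0.238 by edgeR), and of its group β-tetO-NICD 5 alone lay within the controls. Syt14 had 64.7, 76.6, 56.3 and 104 CPM in controls and 61.7, 33.7, 37.1 and 28.4 CPM in β-tetO-NICD islets, where β-tetO-NICD 1 again overlapped with controls (−0.90, adjusted p = 0.0700 by edgeR). Syt17 did not overlap between the groups, at 2.35 to 3.89 CPM in controls and 5.08 to 6.36 CPM in β-tetO-NICD islets (0.75, adjusted p = 0.0663 by edgeR). Syt1, Syt2, Syt3, Syt6, Syt11 and Syt16 had log2 fold changes between −0.80 (Syt6) and 0.36 (Syt16), none past the threshold.

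The 14 synaptotagmins overlapped between the groups in their sum, but not in the shares of Syt5 and Syt13. The sum was 341 to 428 CPM per kb in controls and 337 to 451 CPM per kb in β-tetO-NICD islets. Of it, Syt5 took 3.89% to 5.08% in controls and 15.5% to 32.2% in β-tetO-NICD islets, and Syt13 66.2% to 68.8% in controls and 49.2% to 55.7% in β-tetO-NICD islets. In controls Syt4 and Syt7 each took more than Syt5, whereas Syt5 was second to Syt13 in every β-tetO-NICD library. By level per kb among all 58 genes, Syt5 was in place 21 in controls, at 16.9 CPM per kb, and in place 3 in β-tetO-NICD islets, at 104 CPM per kb.

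**Figure D3:**
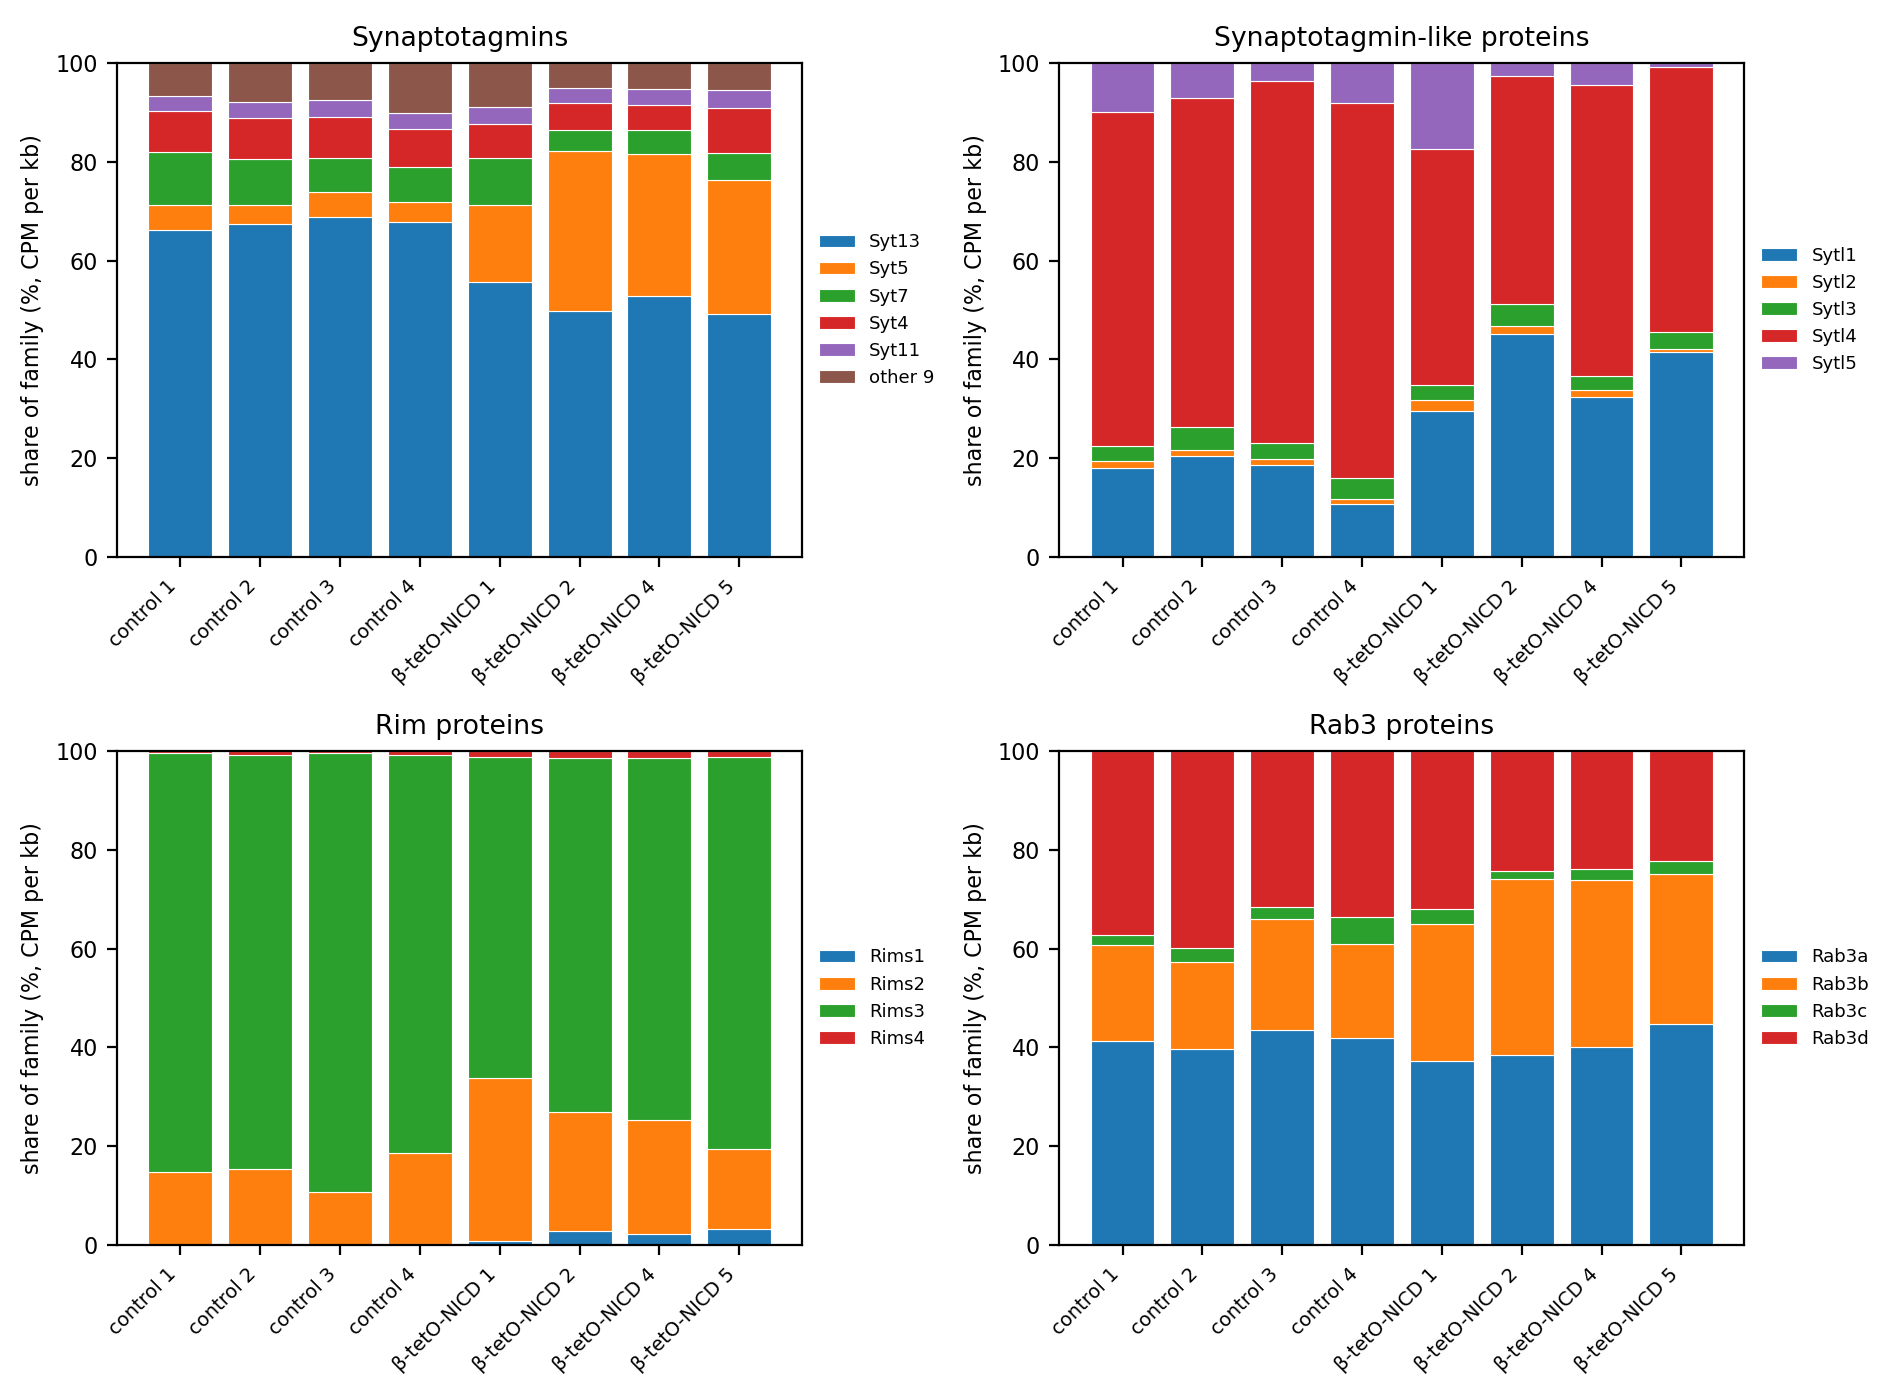
Share of each gene (percent of its family's summed CPM per kb of longest transcript, stacked bars from 0 to 100) in 4 families for each library. Syt5 takes 3.89% to 5.08% of the synaptotagmins in controls and 15.5% to 32.2% in β-tetO-NICD islets, and Sytl4, Rims3 and Rab3d take smaller shares of their families than in the mean control.

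Active zone scaffolds also held a gene that rose and a gene that fell (28.6% of 7 passed, against 6.76% of all genes tested). Rims3 (chromosome 4, 120854816 to 120896579), which encodes a short Rim protein, had 321, 249, 227 and 263 CPM in controls and 94.8, 64.9, 75.6 and 48.1 CPM in β-tetO-NICD islets, giving a log2 fold change of −1.90 with a standard error of 0.221 (edgeR, adjusted p = 0.00144). The lowest control was over 2 times the highest β-tetO-NICD library, and the gene passed in all 22 other fits. Rims1 (chromosome 1, 22286251 to 22805994), the full-length Rim of neuronal synapses, was much rarer, with 12, 18, 11 and 15 counts in controls and 29, 59, 71 and 39 counts in β-tetO-NICD islets. All of the latter exceeded all controls, and the log2 fold change was 1.81 with a standard error of 0.317 (edgeR, adjusted p = 0.0110). It passed in each of the 8 fits with 1 library left out, but not in the fit without the libraries that held Eif2s3y (2.09, adjusted p = 0.116 by edgeR) or with the length slope as covariate (1.64, adjusted p = 0.0872 by edgeR).

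Rims2, the Rim that binds granules in β cells, had 40.7, 33.6, 20.2 and 44.2 CPM in controls and 35.3, 16.1, 17.6 and 7.25 CPM in β-tetO-NICD islets, so that β-tetO-NICD 1 lay among the controls and control 3 near the other β-tetO-NICD libraries. The log2 fold change was −0.86, short of the threshold (interval −1.80 to 0.07, adjusted p = 0.184 by edgeR), and without β-tetO-NICD 1 it was −1.34 and passed (adjusted p = 0.0188 by edgeR), whereas with the length slope of the library as covariate, an alternative described with transcript length, it was 0.08 (adjusted p = 0.890 by edgeR). Rims4 was rare, at 0.870 to 1.98 CPM in controls and 0.554 to 1.33 CPM in β-tetO-NICD islets. Together the 4 Rim genes summed to 39.4 to 58.1 CPM per kb in controls and 9.33 to 22.4 CPM per kb in β-tetO-NICD islets. Rims3 stayed the most abundant of the 4 in every library, with a share of 80.6% to 88.7% in controls and 65.0% to 79.3% in β-tetO-NICD islets, while Rims1 took 0.148% to 0.257% in controls and 0.953% to 3.27% in β-tetO-NICD islets.

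Pclo and Bsn, whose long transcripts encode the scaffolds piccolo and bassoon, split the libraries in the same way as Rims2. Pclo had 242, 174, 83.3 and 275 CPM in controls and 142, 32.6, 49.8 and 38.6 CPM in β-tetO-NICD islets (−1.56, adjusted p = 0.0863 by edgeR). Bsn had 43.6, 35.9, 18.8 and 42.7 CPM in controls and 42.2, 16.9, 22.5 and 17.5 CPM in β-tetO-NICD islets (−0.51, adjusted p = 0.316 by edgeR), and the active zone gene Erc1 31.6, 26.7, 16.3 and 28.2 CPM in controls and 20.8, 9.16, 14.8 and 8.86 CPM in β-tetO-NICD islets (−0.94, adjusted p = 0.0861 by edgeR). In all 3 genes, control 3 was the lowest control and β-tetO-NICD 1 the highest library of its group. Without β-tetO-NICD 1 all 3 passed (adjusted p = 0.00493, 0.0360 and 0.0108 by edgeR), and with the length slope of each library as a covariate their log2 fold changes were −0.45, 0.31 and −0.23, none past the threshold.

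SNARE proteins, which carry out fusion, gave 1 gene that fell. Snap29 (chromosome 16, 17405986 to 17430827), a SNARE of several trafficking steps, was the only one of 11 past the threshold (9.09%, against 6.76% of all genes tested). It had 37.6, 33.8, 39.1 and 30.7 CPM in controls and 26.6, 21.7, 24.2 and 18.9 CPM in β-tetO-NICD islets. The log2 fold change was −0.63 with a standard error of 0.153 (edgeR, adjusted p = 0.0407). With 1 library left out it passed only without β-tetO-NICD 1 (adjusted p over the 8 fits 0.0103 to 0.122 by edgeR). Snap23, the widely expressed relative of Snap25, had 21.8, 25.0, 20.8 and 27.3 CPM in controls and 18.9, 9.03, 13.3 and 11.5 CPM in β-tetO-NICD islets, also without overlap (−0.85, adjusted p = 0.0514 by edgeR). Snap25, the SNARE partner of Stx1a and Vamp2 in β cells, had 124, 146, 145 and 191 CPM in controls and 150.4, 137, 136 and 107 CPM in β-tetO-NICD islets, with overlap, and an interval of −0.58 to 0.20 for its log2 fold change.

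Vamp2, the granule SNARE, overlapped between the groups, at 174, 149, 171 and 159 CPM in controls and 143, 197, 167 and 192 CPM in β-tetO-NICD islets, and the interval of its log2 fold change was −0.23 to 0.43. Stx1a, its partner on the plasma membrane, had 10.9, 12.2, 12.3 and 12.2 CPM in controls and 13.4, 15.5, 16.4 and 14.8 CPM in β-tetO-NICD islets. Those groups did not overlap, although the log2 fold change of 0.34 was small and did not pass (adjusted p = 0.137 by edgeR). Stx4a had 27.3 to 41.8 CPM in controls and 29.8 to 62.6 CPM in β-tetO-NICD islets (0.53, adjusted p = 0.15 by edgeR), and Vamp8, a SNARE that is also used by acinar zymogen granules, 50.3 to 79.4 CPM in controls and 51.5 to 139 CPM in β-tetO-NICD islets (0.66, adjusted p = 0.156 by edgeR). Both were lowest of their group in β-tetO-NICD 1. Stx2, Stx3, Vamp3 and Vamp4 had log2 fold changes between −0.20 (Stx3) and −0.11 (Vamp4).

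None of the 7 SNARE regulators and 4 priming factors passed the threshold by edgeR over all 8 libraries, and 4 of the 11 (36.4%) had an unadjusted p under 0.05, near the 31.6% of all genes tested. By DESeq2 Unc13b and Cadps passed, and by limma-voom Cadps alone. Without β-tetO-NICD 1, edgeR called 5 of the 11, all lower, against 33.2% of all genes in either direction (adjusted p = 0.00598 for Cadps, 0.00853 for Unc13b, 0.00868 for Stxbp5, 0.0167 for Stxbp5l and 0.0473 for Unc13a). None of these 5 passed with the length slope of each library as a covariate. Their log2 fold changes, in the same order, were then −0.42, −0.30, −0.19, 0.02 and 0.15 (adjusted p = 0.260, 0.430, 0.563, 0.985 and 0.746 by edgeR). Cadps, which encodes the CAPS protein that primes insulin granules, did not overlap between the groups, at 150.3, 151, 107 and 122 CPM in controls and 104, 51.9, 71.8 and 38.1 CPM in β-tetO-NICD islets (−1.0, interval −1.64 to −0.36, adjusted p = 0.0634 by edgeR). Unc13b had 67.1, 57.1, 39.9 and 58.8 CPM in controls and 45.5, 19.3, 32.7 and 22.4 CPM in β-tetO-NICD islets (−0.89, adjusted p = 0.0748 by edgeR). Unc13a, the Munc13 of fast release, had 42.6 to 71.0 CPM in controls and 28.6 to 63.9 CPM in β-tetO-NICD islets (−0.40, adjusted p = 0.319 by edgeR), and Cadps2 11.7 to 14.6 CPM in controls and 11.7 to 16.4 CPM in β-tetO-NICD islets (0.17, adjusted p = 0.475 by edgeR). For Cadps, Unc13b and Unc13a, β-tetO-NICD 1 was the highest library of its group and control 3 the lowest control.

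Cplx2, the gene of the complexin that clamps and triggers fusion, was the second most abundant of the 58 genes per kb in both groups, with 773, 680.4, 603 and 663 CPM in controls and 719.7, 524, 523 and 690.2 CPM in β-tetO-NICD islets, and the interval of its log2 fold change was −0.55 to 0.25. Cplx1 was far rarer, at 4.01 to 13.1 CPM in controls and 4.68 to 7.66 CPM in β-tetO-NICD islets (−0.48, adjusted p = 0.358 by edgeR). The tomosyn gene Stxbp5l, whose product binds syntaxin and restrains fusion, had 43.5, 24.9, 11.5 and 35.9 CPM in controls and 29.4, 2.44, 9.26 and 1.16 CPM in β-tetO-NICD islets, and this scatter left its log2 fold change of −1.45 with an interval of −3.29 to 0.39, without β-tetO-NICD 1 it was −2.72, and with the length slope as covariate 0.02 (adjusted p = 0.985 by edgeR). The pattern over libraries, with β-tetO-NICD 1 among the controls and control 3 lowest of them, was that of Sytl5, Rims2 and Pclo. Nsf, the ATPase that recycles SNARE complexes, did not overlap between the groups (66.0 to 88.1 CPM in controls and 43.1 to 64.6 CPM in β-tetO-NICD islets) and differed by −0.39 on the log2 scale (edgeR, adjusted p = 0.146). Stxbp5 (−0.51), Stxbp3 (−0.10) and Stxbp2 (0.24) did not pass.

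Transcript length went along with part of these differences. The median length of the longest transcript was 3852 bases over the 58 genes and 3359 bases over all genes tested. The 26 genes with a transcript over 4245 bases had a median log2 fold change of −0.51, where all genes of that length had −0.31. Those of at most 2573 bases (15 genes) had a median of −0.01, where all genes of that length had 0.35, and the 17 between had −0.28 against −0.01. With an offset that removed the length trend of each library, the 3 medians were −0.24 (short), −0.25 (middle) and −0.08 (long), and 17 of the 58 genes passed, against 10.3% of all genes. The 11 genes were all among these 17, and the others were Cadps, Doc2a, Pclo, Rab27a, Snap23 and Vamp3. With the length slope of the library as a covariate, 6 passed (Syt5, Syt10, Sytl4, Rph3a, Rims3 and Rab27b), against 3.01% of all genes, and the median over the 58 was −0.10. Doc2b, Rab3b and Snap29 lost the call there, at −0.65, 0.46 and −0.52 on the log2 scale (edgeR, adjusted p = 0.239, 0.231 and 0.149), as did Rims1 and Sytl3.

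**Figure D4:**
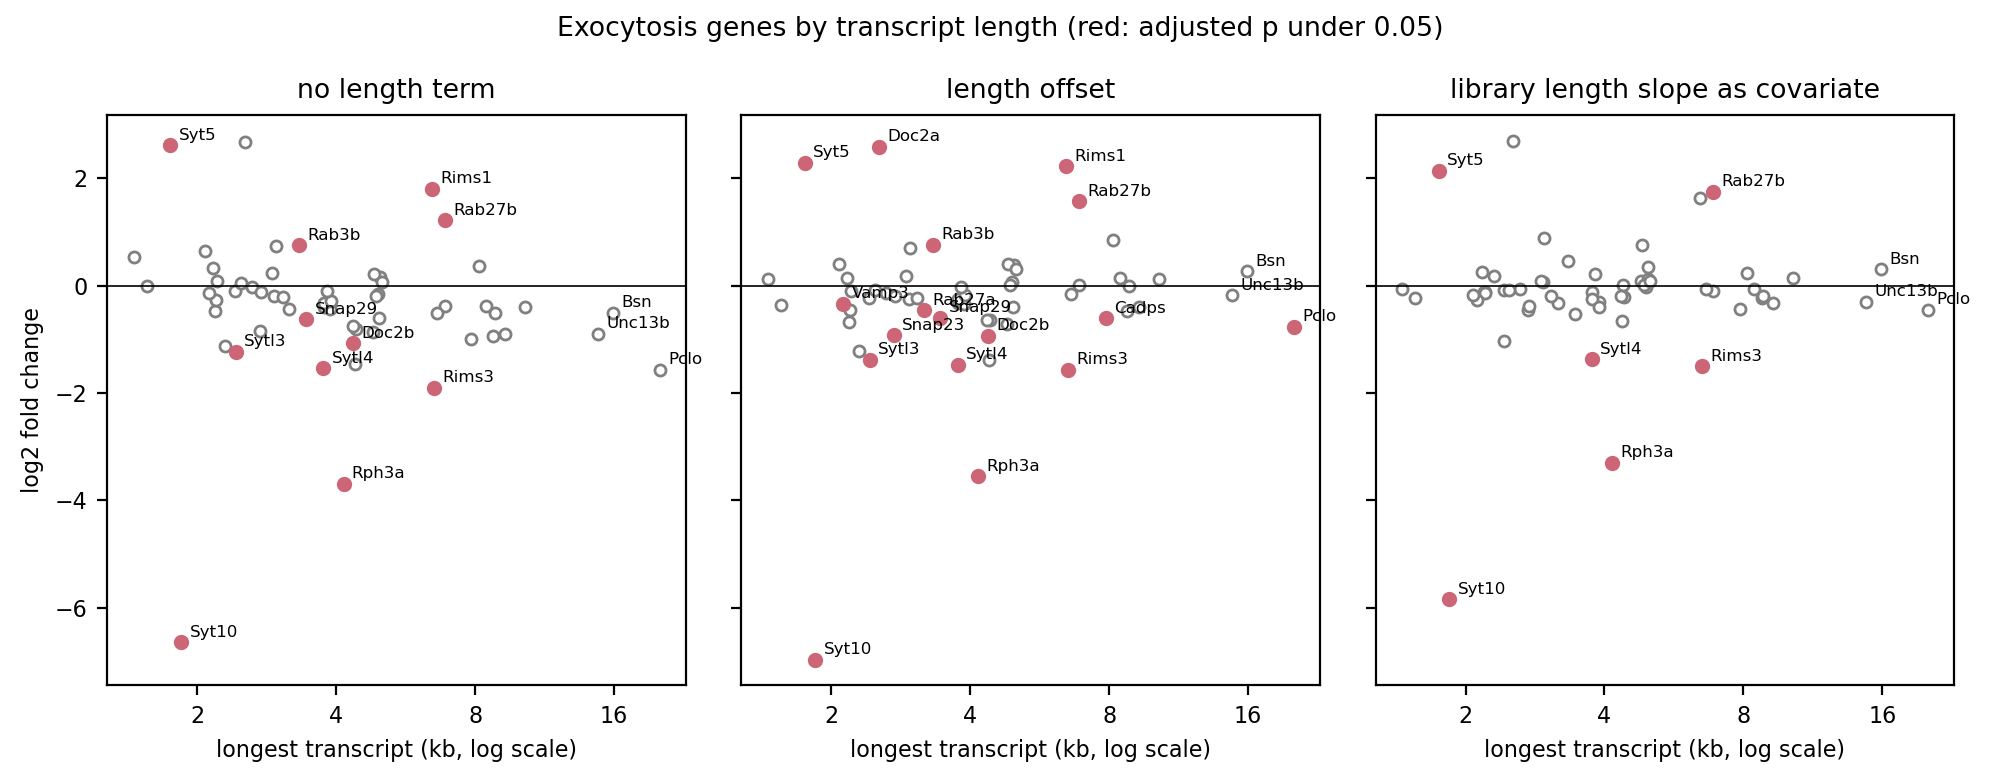
Log2 fold change (vertical axis) of the 58 exocytosis genes against the length of the longest annotated transcript (horizontal axis, kb, log scale) without a length term, with a length offset and with the length slope of each library as a covariate. Filled red points have an adjusted p under 0.05, and Pclo, the longest, moves from −1.56 to −0.77 and −0.45, whereas Rph3a, Sytl4 and Rims3 pass in all 3 fits.

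The number of genes that passed depended most on β-tetO-NICD 1. It was the library of its group nearest the control mean in 38 of the 58 genes (65.5%), against 52.5% of all genes tested. Without it, 30 of the 58 passed, 23 lower and 7 higher, against 33.2% of all genes. Beside the 11, these were Bsn, Cadps, Doc2a, Erc1, Pclo, Rab27a, Rab3d, Rims2, Snap23, Stx4a, Stxbp5, Stxbp5l, Syt7, Syt14, Sytl2, Sytl5, Unc13a, Unc13b and Vamp8, of which Doc2a also passed without control 3 and none passed with the length slope as covariate. Among them Bsn and Unc13a moved to −0.89 and −0.67 on the log2 scale. With each of the other 7 libraries left out in turn, between 7 and 9 passed, and 2.48% to 5.74% of all genes. The 7 genes that passed in every one of the 8 fits were Syt5, Syt10, Sytl3, Sytl4, Rph3a, Rims1 and Rims3.

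**Figure D5:**
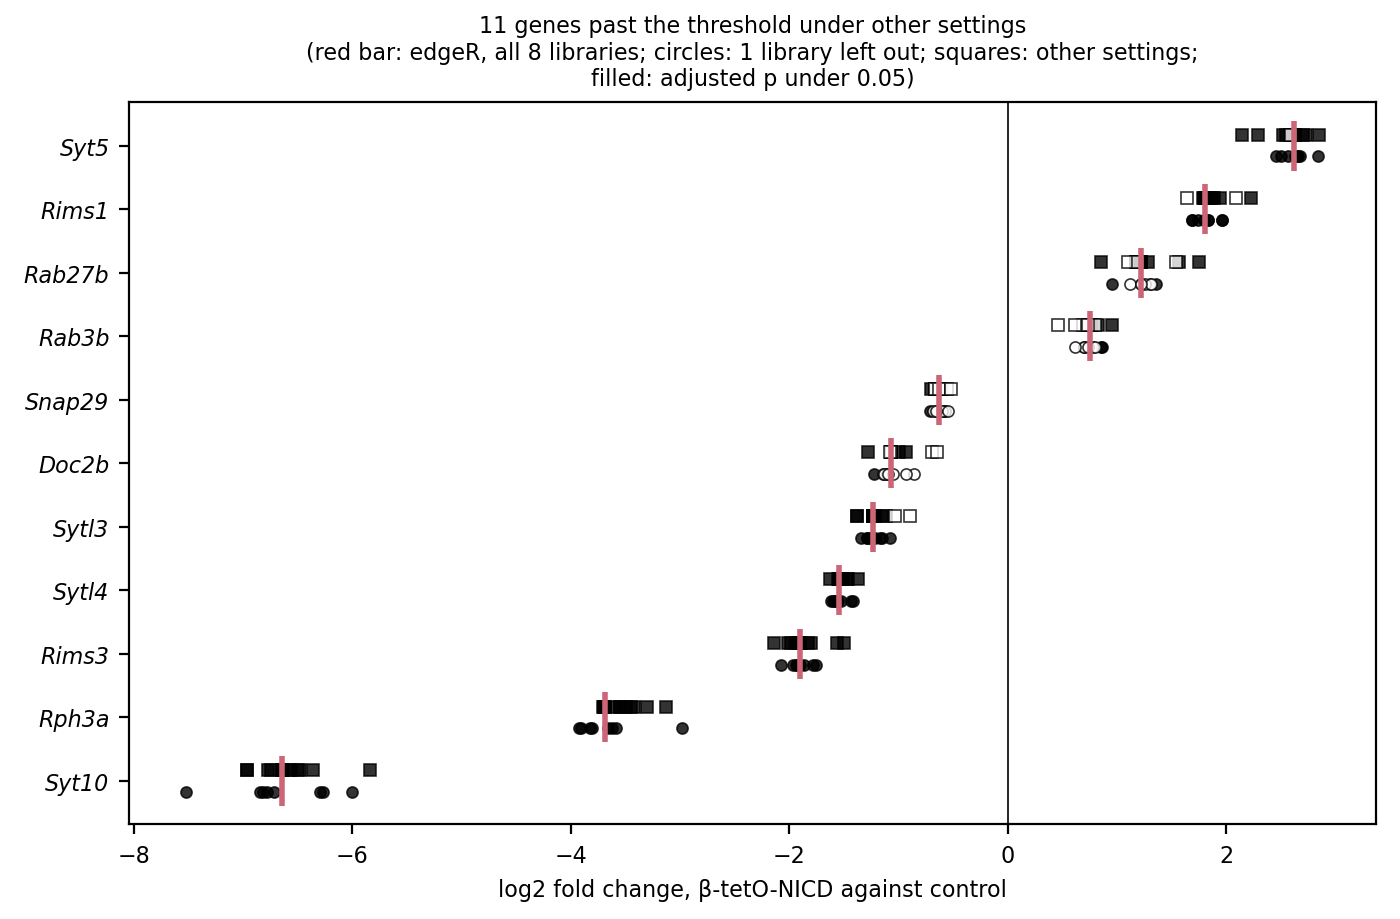
Log2 fold change (horizontal axis) of the 11 exocytosis genes past the threshold in the fit of all 8 libraries (red bars), with 1 library left out (circles) and under other settings (squares), filled where the adjusted p is under 0.05. No point changes sign, and all points are filled for Sytl4, Rims3, Rph3a and Syt10, the last of which could not be tested with 10 counts required in every library.

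Of 63 further genes of vesicle docking and fusion that were listed, 60 were tested, and 3 (5%) passed, all lower. Of all genes 6.76% passed in either direction, and 2.57% were lower. Sv2a, a membrane glycoprotein of secretory vesicles, fell from 125 ± 10 CPM in controls to 75.3 ± 10.5 CPM (both SD, n = 4), by 0.73 on the log2 scale (edgeR, adjusted p = 0.0206). Myo5a and Mlph, which encode the myosin Va motor and the melanophilin adaptor that links this motor to Rab27a, fell by 1.32 and 1.43 on the log2 scale (edgeR, adjusted p = 0.0429 and 0.0464), and in both the groups overlapped. The median over the 60 genes was −0.20.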

How the data were processed

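Islet RNA of 4 mice per group was sequenced. Per the labels and the study's methods, libraries were stranded and poly(A)-selected, reads were assigned to GRCm38 transcripts with kallisto, and the authors deposited whole-number counts per gene symbol, not normalized. The kallisto version, the annotation and how estimated counts were made whole are not given in the sources used here. The authors' table of their own comparison (log2 fold changes and p-values) was not used. Columns were assigned by name. The β-tetO-NICD columns are numbered 1, 2, 4 and 5 and the mice 1 to 4, so columns 4 and 5 were given a group only. Replicates all differed by more than sampling noise (chi-square of at least 31.5 per gene). The labels name separate mice but no batches.

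The tests used edgeR 4.0.16 (R 4.3.3). Genes that reached 10 counts in 4 or more libraries (15082) were normalized by TMM and compared by the quasi-likelihood test without covariates, with Benjamini-Hochberg adjustment over all genes and a threshold of 0.05. CPM values were computed with TMM-scaled library sizes. A floor of 3 counts per library is 0.0995 to 0.151 CPM and covers counting error only. CPM per kb used the longest GENCODE M21 transcript. The fits were tested on simulated data first. By rule, genes past the threshold and 25 core genes listed by name were described, and the remaining members were named within their classes after their values were seen. Members and lists were chosen with earlier results of these data known. Alternatives were DESeq2 1.42.0, limma-voom (limma 3.58.1), other normalizations and filters, removal of the 10 most counted genes, an acinar score, Eif2s3y or length slope as covariate, a length offset, a replicate block and the omission of libraries.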

Additional observations from a re-analysis of the deposited data

Results flagged for a closer look

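Every group of 4 libraries was examined for a library far from the rest, in each of the 58 genes. By the distance of the highest or lowest library to the next, as a share of the range of the group, 7 of 116 groups lay past the 95% limit of Dixon, and about 5.8 would do so by chance. Control 4 was the highest control for Syt9 (0.881 of the range), Syt10 (0.830) and Doc2b (0.851). Control 1 was the lowest control for Stx1a (0.955), and control 3 the highest for Vamp4 (0.876). β-tetO-NICD 5 was the highest of its group for Syt4 (0.910), and β-tetO-NICD 1 for Pclo (0.843). Without control 4, Syt10 still passed the threshold (adjusted p = 0.00282 by edgeR), and Doc2b had a log2 fold change of −0.86 and did not pass (adjusted p = 0.107 by edgeR).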

How the results depend on the processing

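Of the 11 genes past the threshold (4 higher, 7 lower), all 11 passed with DESeq2 (21 in all, 15 lower, against 18.2% of all genes), limma-voom and the length offset (17 in all, 12 lower). With the acinar score as covariate 7 passed (2 higher; 4.9% of all genes), with Eif2s3y as covariate 8 (2 higher; 4.91%), and among the 5 libraries without Eif2s3y counts 4 (0 higher; 4 lower, Rims3, Rph3a, Syt10 and Sytl4), against 0.809% of all genes. Of the alternatives added after seeing the data, the length slope as covariate gave 6 (2 higher, 4 lower, median log2 fold change −0.10) and the omission of control 3 and β-tetO-NICD 1 together 31 (7 higher, 24 lower), against 39.3% of all genes. With 1 library left out the number was 7 to 30 (2 to 7 higher, 5 to 23 lower), against 2.48% to 33.2% of all genes. With upper-quartile normalization Snap29 did not pass, without a filter Snap29 and Rab3b did not, and Syt10 could not be tested with 10 counts in every library. The median over the 58 genes was negative in all 22 alternatives, from −0.43 (without control 3 and β-tetO-NICD 1 together) to −0.10 (length slope as covariate). It was −0.22 without control 4 and −0.18, with 37 genes negative, in the libraries without Eif2s3y counts. For these results the cause of each change was not tested. Fits with libraries left out also rested on fewer of them.

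The numbers shared by the labels (1 and 2 are settled for a library of each group) do not pair the mice, and deviations of same-numbered libraries correlated at 0.28 and −0.09. With the replicate number as a block 11 genes passed, against 6.42% of all genes, 8 of them among the 11, with Doc2b, Rab3b and Snap29 replaced by Cadps, Pclo and Unc13b.

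Only genes that did not pass changed the sign of their log2 fold change. With upper-quartile normalization, the values were 0.052 and 0.070 for Syt3 and Rab3a, in that order. With the acinar covariate, the values were 0.083, 0.0076 and −0.0092 for Syt3, Rab3a and Sytl1, in that order. In libraries without Eif2s3y counts, the values were 0.046, 0.17, 0.034, 0.0020, −0.11, 0.070, −0.029, 0.31 and 0.049 for Syt3, Syt6, Syt9, Rab3c, Sytl1, Snap25, Vamp2, Cplx1 and Rims4, in that order. With the length offset, the values were 0.013, 0.15, −0.074, 0.014, −0.11, 0.074, 0.13 and 0.27 for Syt2, Rab3c, Sytl1, Snap25, Vamp2, Cplx2, Unc13a and Bsn, in that order. With the length slope as covariate, the values were 0.22, −0.072, 0.19, 0.018, 0.065, −0.063, −0.13, −0.16, 0.022, 0.15, 0.082, 0.12 and 0.31 for Syt9, Sytl1, Sytl5, Snap25, Stx2, Stx4a, Vamp2, Vamp8, Stxbp5l, Unc13a, Rims2, Rims4 and Bsn, in that order. Without control 3 and β-tetO-NICD 1, the values were −0.10, 0.067, 0.12 and 0.052 for Syt1, Syt3, Rab3a and Vamp4, in that order. With 1 library left out, Rab3a ranged from −0.058 to 0.063, Vamp4 ranged from −0.23 to 0.022, Syt3 ranged from −0.20 to 0.059, Syt9 ranged from −0.29 to 0.023 and Sytl1 ranged from −0.050 to 0.14. Genes of about 1 CPM, such as Rims1, Rims4 and Doc2a, rest on few counts.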
